A study of Sus scrofa with 9 samples.

Results

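Transcripts of interleukin receptor chains were read in T cells sorted from the blood of sows. The set was defined by name as IL2RA, IL2RB, IL2RG, IL4R, IL7R, IL12RB1, IL12RB2 and IL18R1, which are 8 genes, and every array probe whose accession matched one of them in the pig annotation was taken. This gave 7 of the 8 genes, among 3052 genes that could be named on the array, with 10 of its 43603 probes. No probe matched IL2RB, the beta chain of the interleukin-2 and interleukin-15 receptors, so it was not analysed here. IL2RG, IL7R and IL18R1 had 2 probes each, and IL2RA, IL4R, IL12RB1 and IL12RB2 had 1 each. Probes of 1 gene read the same transcript and were not counted as replicates.

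The CD3+CD4+CD8+ group is written DP below, for double positive. The CD3+CD4+ group is written as the CD4 fraction and the CD3+CD8+ group as the CD8 fraction. Each of the 3 had 3 arrays (n = 3 throughout). All came from mononuclear cells of whole blood spun on Percoll, and all RNA was amplified from 25 ng before labelling with Cy3. The design sets DP against each of the other fractions, and the labels call the arrays biological replicates without tying them to animals, so p-values measure only the spread between these arrays. The gates are named only by the markers that the cells carried, so the labels do not say whether CD8 was excluded from the CD4 fraction or CD4 from the CD8 fraction. The sources used here do not give the age or number of the sows or the sort purity.

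The receptors fall into 2 families. Receptors of the common gamma chain family share the chain encoded by IL2RG and pair it with a chain that recognises the cytokine, such as IL7R for interleukin-7, IL4R for interleukin-4, and IL2RA with IL2RB for interleukin-2; they signal through Janus kinases and STAT proteins and support the survival and growth of T cells. IL12RB1 and IL12RB2 form the receptor for interleukin-12, which signals through STAT4, and IL18R1 binds interleukin-18 and signals through MYD88 and IRAK kinases. Interleukin-12 and interleukin-18 are known to induce interferon gamma in T cells and natural killer cells. Pigs are known for blood T cells with CD4 and CD8 on the same cell, which include activated and memory helper cells.

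Values are given as the log2 of the background-corrected signal relative to the 75th percentile of the probes on the same array, so that 0 is the level of that percentile. That percentile ranged from 15.2 to 84.1 signal units over the 9 arrays, and 32.6% to 53.7% of probes were well above background per array. The sorting markers followed the gates: CD4 averaged 2.14 in DP, 1.92 in the CD4 cells and -2.04 in the CD8 cells, and CD8A averaged 3.47, 0.27 and 5.35. The 6 T cell marker genes with a probe were all tested, and 0 passed the test in any comparison, beside 0.293% to 0.437% of all tested probes. The 3 fractions were not spread evenly over the slides. Slide 1 held DP array 1, slide 2 held DP array 2, CD4 array 2 and CD8 arrays 1 and 2, and slide 3 held the other 4 arrays.

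The clearest presence among these receptor chains was that of IL7R and IL2RG, whose probes were all well above background on all 9 arrays. IL12RB1 was also above background on all 9 arrays. IL18R1 was above background on all 3 DP arrays with both probes, and with probe 2 on fewer arrays of each other fraction. IL12RB2 and IL4R were dim, and IL2RA was above background on 0 of the 9 arrays. In family terms, the probes of the IL12 and IL18 receptor chains were above background in 11 of 12 readings in DP, 9 of 12 in the CD4 cells and 6 of 12 in the CD8 cells. The common gamma chain family was above background in 13, 13 and 12 of 18 readings. Because these are bulk samples, fewer cells of a type and less RNA per cell cannot be told apart in any of these values.

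**Figure D1:**
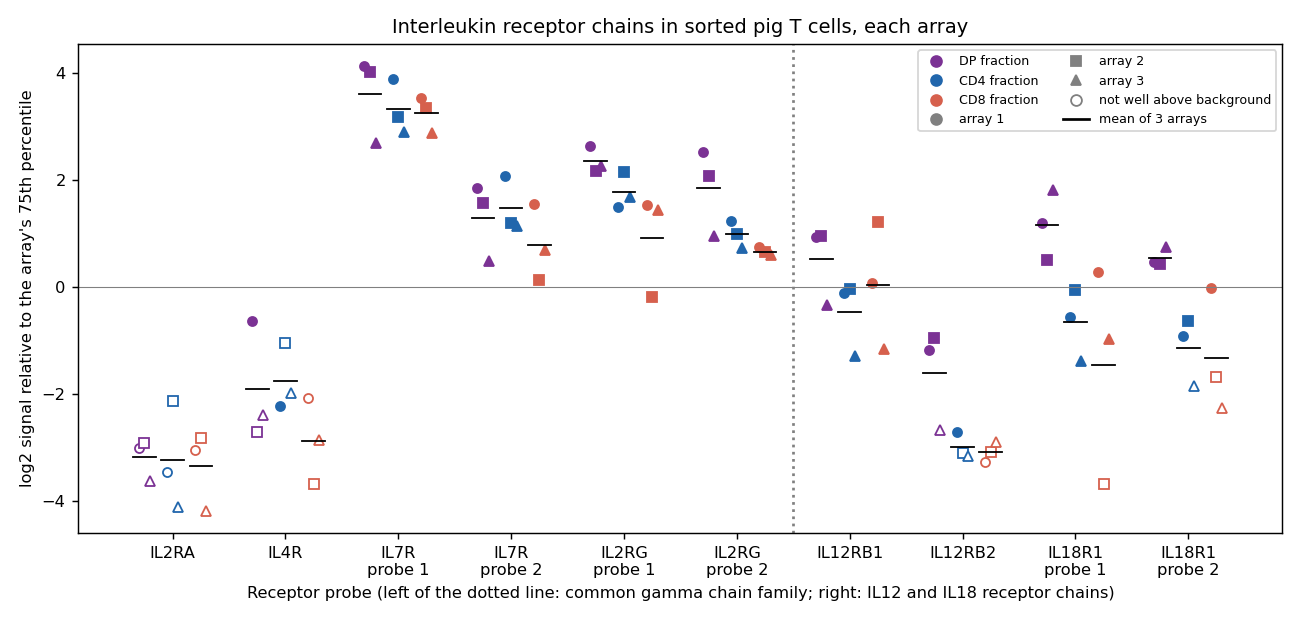
Signal of each of the 10 receptor probes on each array, as log2 relative to the array's 75th percentile (vertical axis), with colours for the fractions, symbols for the array number, open symbols for readings not well above background and bars for the mean of 3 arrays. Both IL18R1 probes have their 3 DP arrays above the other 6, while the IL7R arrays of the fractions overlap and all IL2RA symbols are open.

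IL2RG encodes the common gamma chain itself. Its brighter probe (A_72_P303129, probe 1) read 2.64, 2.18 and 2.26 on DP arrays 1, 2 and 3. The CD4 arrays gave 1.51, 2.15 and 1.68, and the CD8 arrays gave 1.54, -0.19 and 1.44. The 3 DP values lay above all 6 others, though the lowest DP value and the highest CD4 value were close, and CD8 array 2 stood apart at the bottom. The means were 2.36 ± 0.25 in DP, 1.78 ± 0.33 in the CD4 cells and 0.93 ± 0.97 in the CD8 cells (SD). DP minus CD8 was 1.43 on the log2 scale (SE 0.49, 95% confidence interval 0.38 to 2.48, 2.70-fold), with an adjusted p of 0.467 in limma, so the call was not made. DP minus CD4 was 0.58 (0.49; interval -0.47 to 1.63).

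The other IL2RG probe (A_72_P572539, probe 2) read 2.54, 2.08 and 0.95 in DP, 1.23, 1.00 and 0.74 in the CD4 cells and 0.74, 0.66 and 0.60 in the CD8 cells. Here DP array 3 lay among the CD4 arrays, and all DP arrays remained above all CD8 arrays. DP minus CD8 was 1.19 (SE 0.45, interval 0.21 to 2.17, 2.28-fold; limma adjusted p = 0.605) and DP minus CD4 was 0.86 (interval -0.12 to 1.84). Without CD8 array 2, the DP minus CD8 difference of probe 1 was 0.87 in place of 1.43, and that of probe 2 was 1.18. Within slide 2, DP minus CD8 was 1.50 for probe 1 and 1.38 for probe 2, and within slide 3 it was 0.83 and 0.35. DP minus CD4 was 0.03 and 1.08 within slide 2, and 0.67 and -0.04 within slide 3, so the probes differed in which slide carried the difference. Over the 9 arrays the probes of IL2RG correlated at r = 0.607, against 0.741 for those of IL7R and 0.820 for those of IL18R1; these are descriptions over arrays that share amplification and scaling.

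IL7R encodes the alpha chain of the interleukin-7 receptor, which naive and memory T cells are known to carry. Probe 1 (A_72_P674582) read 4.14, 4.03 and 2.69 in DP, 3.90, 3.18 and 2.90 in the CD4 cells and 3.55, 3.35 and 2.88 in the CD8 cells. Probe 2 (A_72_P237197) read 1.85, 1.57 and 0.49 in DP, 2.08, 1.20 and 1.14 in the CD4 cells and 1.55, 0.14 and 0.70 in the CD8 cells. The fractions overlapped with both probes, and within DP the low value was array 3 each time. The means of probe 1 were 3.62 ± 0.80, 3.33 ± 0.52 and 3.26 ± 0.34 (SD) in DP, CD4 and CD8, which are neighbours that did not differ beyond their spread. DP minus CD4 was 0.29 for probe 1 (interval -0.70 to 1.27) and -0.17 for probe 2 (-1.28 to 0.94). DP minus CD8 was 0.36 (-0.63 to 1.34) and 0.51 (-0.60 to 1.62). The interval of probe 2 for DP minus CD4 takes in a level 2-fold lower in DP, and those of DP minus CD8 take in a level 2-fold higher, so the values do not show that the fractions have the same level.

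IL4R, which encodes the alpha chain that binds interleukin-4 and interleukin-13, was above background on DP array 1 and CD4 array 1 only (A_72_P088511). It read -0.63, -2.70 and -2.39 in DP, -2.22, -1.05 and -1.97 in the CD4 cells and -2.08, -3.68 and -2.86 in the CD8 cells. The highest reading was DP array 1, at 25.7 signal units. The probe missed the detection filter and was not tested with the others. IL2RA encodes CD25, the chain that raises the affinity for interleukin-2 on activated and regulatory T cells. Its probe (A_72_P303174) averaged -3.18, -3.24 and -3.35 in DP, CD4 and CD8 without passing background anywhere, so no difference is given. The lowest signal that counted as well above background lay between 6.86 and 9.43 units, and this depth sets what could be seen of IL2RA.

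IL18R1, which encodes the chain that binds interleukin-18, gave the largest differences of DP from CD4 and from CD8 among the tested receptor probes as reported. In CD4 minus CD8 the difference of IL2RG probe 1 was larger, at 0.85 beside 0.80 for IL18R1 probe 1. With normexp and quantile normalization the largest DP minus CD8 difference was that of IL2RG probe 1, at 0.80, beside 0.76 and 0.50 for the IL18R1 probes. Probe 1 (A_72_P302949) read 1.19, 0.50 and 1.82 in DP, -0.55, -0.05 and -1.38 in the CD4 cells and 0.28, -3.68 and -0.98 in the CD8 cells. Probe 2 (A_72_P463714) read 0.48, 0.43 and 0.75 in DP, -0.92, -0.63 and -1.85 in the CD4 cells and -0.01, -1.68 and -2.26 in the CD8 cells. With both probes the 3 DP arrays lay above the other 6. The DP arrays were also close together with probe 2, while the CD8 arrays were spread widely with both. Probe 1 was above background on 3 DP, 3 CD4 and 2 CD8 arrays, and probe 2 on 3, 2 and 1. The CD8 array 2 value of probe 1 was the lowest signal of that array.

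For probe 1 of IL18R1 the means were 1.17 ± 0.66 in DP, -0.66 ± 0.67 in the CD4 cells and -1.46 ± 2.02 in the CD8 cells (SD). DP minus CD4 was 1.83 (SE 0.83, interval 0.03 to 3.63, 3.56-fold), with an unadjusted p of 0.0467 and an adjusted p of 1.00 in limma. DP minus CD8 was 2.63 (SE 0.83, interval 0.83 to 4.43, 6.19-fold), with an unadjusted p of 0.0076 and an adjusted p of 0.398 in limma. For probe 2 the means were 0.56 ± 0.17, -1.14 ± 0.64 and -1.32 ± 1.17 (SD). Its DP minus CD4 was 1.69 (SE 0.62, interval 0.36 to 3.02, 3.23-fold; limma adjusted p = 0.615) and its DP minus CD8 was 1.87 (SE 0.62, interval 0.54 to 3.21, 3.66-fold; limma adjusted p = 0.435). None of the 4 differences passed the test over all probes. CD4 minus CD8 was 0.80 (-1.00 to 2.60) and 0.18 (-1.15 to 1.51), an order that did not hold beyond the spread.

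A single array bore heavily on the first probe. Without CD8 array 2, DP minus CD8 of IL18R1 probe 1 was 1.52 (limma adjusted p = 0.854), against 2.63 with it, and that of probe 2 was 1.69, against 1.87. Without CD8 array 1 the same difference of probe 1 was 3.50, with an adjusted p of 0.137 in limma, the smallest of any receptor probe under the settings tried. Within slide 2, DP minus CD4 was 0.55 for probe 1 and 1.07 for probe 2, and DP minus CD8 was 2.20 and 1.28. Within slide 3, DP minus CD4 was 2.78 and 2.14, and DP minus CD8 was 2.79 and 3.01. DP was higher in each of these within-slide differences, each from 1 DP array against 1 or 2 arrays of the other fraction. They are not separate results, since they rest on DP arrays 2 and 3 only and the probes read the same transcript. Probe 2 also passed the detection filter through DP alone.

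IL12RB1 encodes the chain shared by the receptors for interleukin-12 and interleukin-23. Its probe (A_72_P440881) read 0.94, 0.95 and -0.33 in DP, -0.11, -0.03 and -1.28 in the CD4 cells and 0.07, 1.22 and -1.16 in the CD8 cells. Between arrays of the same number in the sample titles, DP minus CD4 was 1.05, 0.98 and 0.96, and DP minus CD8 was 0.87, -0.27 and 0.83. The labels do not say what the number marks, so these are not known to be pairs. The deposited table numbers the CD8 arrays otherwise, and the DP minus CD8 values hold only for the numbers of the titles. Every other tested receptor probe was less even in DP minus CD4. The values were 1.74, 0.55 and 3.19 for IL18R1 probe 1 and 1.13, 0.03 and 0.58 for IL2RG probe 1. For IL7R probe 2 they were -0.23, 0.37 and -0.65. For IL12RB1, array 3 was the lowest of each fraction, CD8 array 2 was the highest of all 9, and the fractions overlapped. The means were 0.52 ± 0.73, -0.47 ± 0.70 and 0.04 ± 1.19 (SD). DP minus CD4 was 1.00 (SE 0.64, interval -0.40 to 2.39), DP minus CD8 was 0.48 (-0.91 to 1.87) and CD4 minus CD8 was -0.52 (-1.91 to 0.87). The array on which IL12RB1 was brightest was thus the one on which IL18R1 probe 1 and IL2RG probe 1 were dimmest.

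IL12RB2 encodes the signalling chain of the interleukin-12 receptor, known as a mark of T cells committed to interferon gamma production. Its probe (A_72_P077956) was above background on DP arrays 1 and 2, at 17.6 and 21.9 signal units, on CD4 array 1 at 12.8 units, and on no CD8 array. It read -1.17, -0.96 and -2.67 in DP, -2.72, -3.11 and -3.16 in the CD4 cells and -3.27, -3.08 and -2.89 in the CD8 cells. The 3 DP values lay above the other 6, but DP array 3 was itself not well above background, and some of the low values were at the lowest signal of their array and have no order. The probe missed the filter by that array. In a limma fit of all 43603 probes, DP minus CD4 was 1.39 (interval -0.21 to 3.00) and DP minus CD8 was 1.48 (-0.13 to 3.08; adjusted p = 0.957). Set against the lowest measurable signal, the data gave no fold above 1 for IL12RB2 in DP over CD8.

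Of the 10 receptor probes, 7 passed the detection filter, for IL2RG, IL7R, IL12RB1 and IL18R1. In DP against CD4, 0 of the 7 were called at an adjusted p under 0.05 in limma, where 0.293% of the 16024 tested probes were called. In DP against CD8, 0 of the 7 were called, where the share of all probes was 0.312%. In CD4 against CD8 it was 0 of 7, beside 0.437% of all probes, and in the F test over the 3 fractions 0 of 7, beside 0.612%. With calls this rare over the whole array, a count of 0 among 7 probes is what the background share gives. At an unadjusted p under 0.05, 2 of the 7 passed in DP against CD4, 4 in DP against CD8 and 0 in CD4 against CD8, beside 4.84%, 6.52% and 4.54% of all probes. Both passes in DP against CD4 were IL18R1 probes, and in DP against CD8 both IL2RG probes joined them, so these are not counts of genes. IL18R1 probe 2 had entered the test through DP alone, so a difference in favour of DP was favoured by the filter. The smallest adjusted p of the F test was 0.480, for IL18R1 probe 2. With the replicate number as a block, 0 of the 7 were called in each comparison, beside 144, 83 and 110 calls over all probes in place of 47, 50 and 70. The blocked adjusted p in DP against CD4 was 0.599 for IL12RB1 and 0.631 and 0.353 for IL18R1 probes 1 and 2, and in DP against CD8 it was 0.237 for both IL18R1 probes. These depend on the numbering of the CD8 arrays. By the numbering of the deposited table, IL18R1 probe 2 had a blocked adjusted p of 0.690 in limma in DP against CD4. In DP against CD8 the values were 0.406 and 0.499 for IL18R1 probes 1 and 2.

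The 3 arrays of DP lay above all 3 CD4 arrays for 3 of the 7 probes, which were both IL18R1 probes and IL2RG probe 1, beside 5.22% of all tested probes. They lay above all 3 CD8 arrays for 4 of the 7, where IL2RG probe 2 joined them, beside 4.59% of all. DP lay above both other fractions for 3 of the 7, beside 1.6% of all, and these 3 probes stand for 2 genes. IL18R1 probe 2 passed the detection filter through DP alone, so its being highest there was favoured by the filter. Among the other 6 receptor probes the count was 2, beside 1.19% of the other tested probes. These counts are descriptions of the probes that passed. For 0 of the 7 did the CD4 and CD8 arrays fail to overlap, beside 8.01% of all. The median difference of the 7 probes was 0.86 for DP minus CD4, 1.19 for DP minus CD8 and 0.32 for CD4 minus CD8, against -0.02, -0.03 and -0.01 over all tested probes. This median is not one over genes, since IL2RG, IL7R and IL18R1 enter it with 2 probes each. It also includes IL18R1 probe 2, for which the filter favoured a higher DP level.

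**Figure D2:**
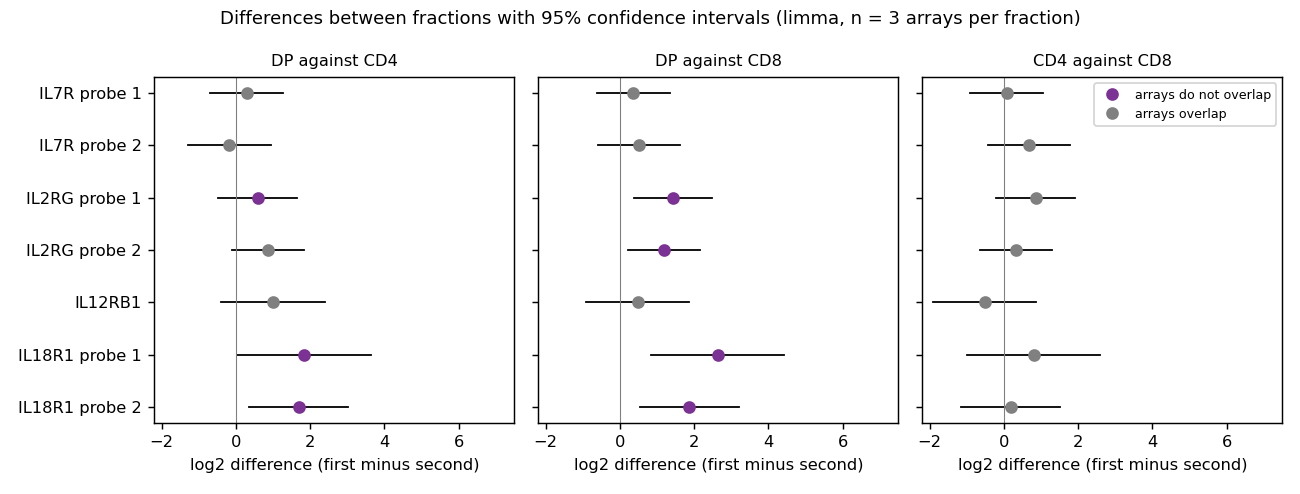
Log2 difference of each tested receptor probe in the 3 comparisons (horizontal axis, first fraction minus second), with the 95% confidence interval of limma and n = 3 arrays per fraction; purple points mark probes whose arrays do not overlap between the fractions. The points of DP against CD8 all lie above 0, from 0.36 for IL7R probe 1 to 2.63 for IL18R1 probe 1, and no point is called after adjustment.

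Set side by side, each family had 2 genes with a tested probe, taken by the brighter tested probe of each gene. For the IL12 and IL18 receptor chains the median of IL12RB1 and IL18R1 was 1.41 for DP minus CD4, 1.55 for DP minus CD8 and 0.14 for CD4 minus CD8. For the common gamma chain family the median of IL2RG and IL7R was 0.44, 0.90 and 0.46. These medians split within each family, since IL18R1 and IL2RG gave the larger DP differences and IL12RB1 and IL7R the smaller ones. The family order of DP minus CD8 turned with normexp and quantile normalization, where the median was 0.45 for the IL12 and IL18 receptor chains and 0.58 for the common gamma chain family, and among probes above background on all 9 arrays, where IL12RB1 stood alone for its family at 0.48 against 0.90. In CD4 minus CD8 the common gamma chain family had the larger median under every setting tried. The difference between the families was not tested, and the comparisons of DP with CD4 and with CD8 share the DP arrays.

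**Figure D3:**
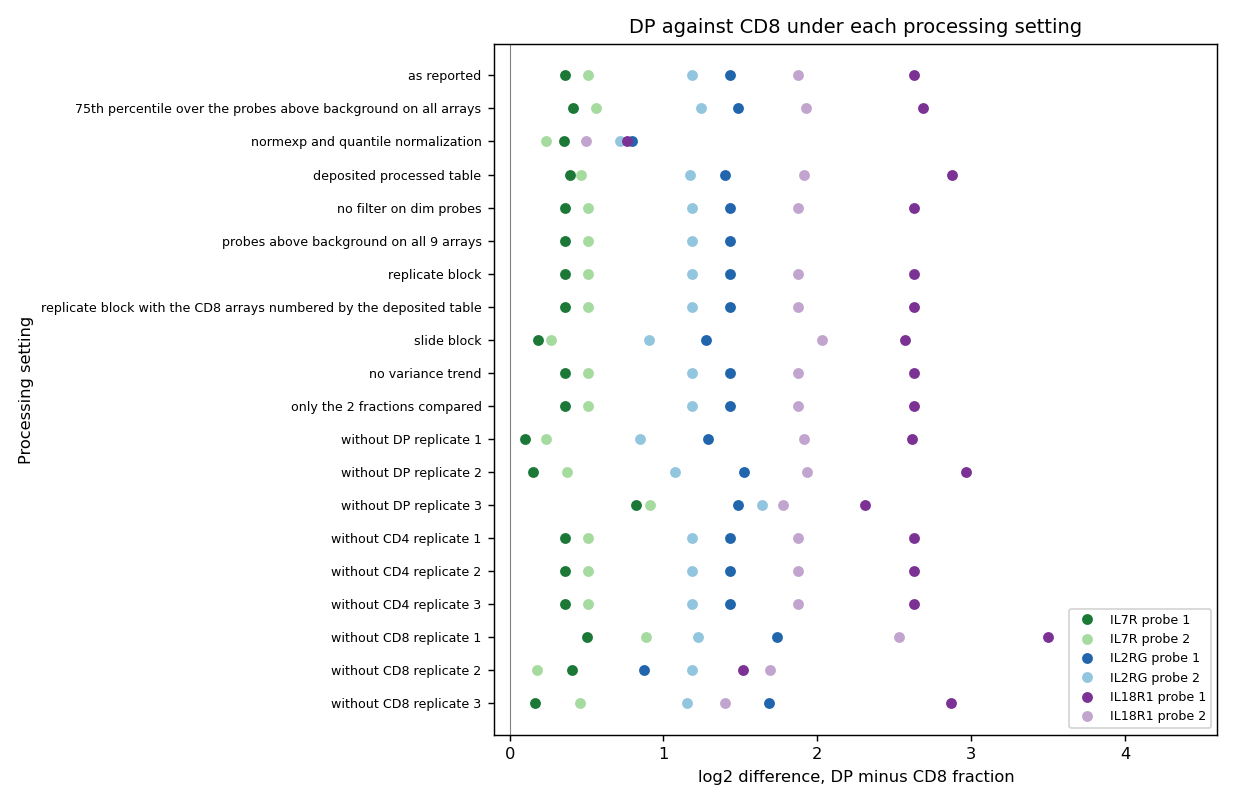
Log2 difference, DP minus CD8 (horizontal axis), of the IL7R, IL2RG and IL18R1 probes as reported and under each processing setting (vertical axis); each point is one probe. The points of all the probes drawn, IL7R included, stay to the right of 0 under every setting in which they were tested. IL18R1 probe 1 runs from 0.76 with normexp and quantile normalization to 3.50 without CD8 array 1. IL12RB1, which is not drawn, ran from -0.12 to 1.07.

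Natural killer cells are known to carry the interleukin-18 receptor and the interleukin-2 receptor's shared chains, so markers of other cells were read beside these results. All 3 fractions were sorted as CD3+, a gate meant to leave out natural killer, B and myeloid cells, and the sort purity is not given. Of 9 natural killer markers, 6 had a probe, and NCR1 was above background on no array. Their summed signal, in multiples of the array's 75th percentile, ranged from 44.5 to 113 in DP, 6.52 to 15.3 in the CD4 cells and 32.2 to 81.8 in the CD8 cells. The DP and CD8 sums overlapped and lay above the CD4 sums. FCGR3A had the highest log2 mean of these markers in each fraction, at 5.87 in DP, 3.06 in CD4 and 5.14 in CD8. The sum therefore follows that gene most and does not measure the share of natural killer cells. CD79A, a B cell marker, averaged -0.05 ± 1.27 in DP, 0.17 ± 0.41 in the CD4 cells and 3.15 ± 0.66 in the CD8 cells (SD), and was above background on all 9 arrays. The myeloid sum, over 8 of 11 markers with CD163, S100A8 and S100A9 above background on no array, was 1.62 to 8.45, 1.81 to 3.68 and 4.79 to 10.3. The part of these cells in the receptor values was not tested.

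The other genes of these pathways came from lists of receptor chains, ligands, kinases, inhibitors and targets, each gene read by its brightest tested probe. Of 24 other receptor chains, 11 had a probe and 7 were tested. IL6R and IL6ST, the chains of the interleukin-6 receptor, were higher in DP than in CD8, by 3.69 (limma adjusted p = 0.0429) and 2.59 (0.0452), and higher in CD4 than in CD8, by 3.54 (0.0337) and 3.23 (0.00928). None of the 7 passed in DP against CD4, beside 0.293% of all tested probes, and the list's medians were -0.43, -0.03 and 0.73 in the 3 comparisons. IL6R was above background on 1 of the 3 CD8 arrays and IL6ST on 2, so the sizes of their differences from CD8 rest partly on readings at background. The calls held for 2 of the 3 IL6R probes and 1 of the 2 IL6ST probes. In DP against CD8 they were lost under 11 of 18 alternatives for IL6R and 15 of 18 for IL6ST, with adjusted p-values of up to 0.209 and 0.200. Among these, leaving out any DP array, CD4 array 2 or 3, or CD8 array 1 or 2 ended the IL6R call, and leaving out any array but DP array 3 ended the IL6ST call. In CD4 against CD8 the IL6R call was lost under 9 of 18 alternatives, namely with the other percentile (0.0766), the deposited table (0.0502) and the slide block (0.148), and without DP array 1, any CD4 array, or CD8 array 1 or 2, at up to 0.157, and the IL6ST call without CD4 array 2 or CD8 array 2, at up to 0.0571. IL18RAP, the accessory chain of IL18R1, had no matched probe and was not analysed here.

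Of 12 cytokines that these receptors bind, 11 had a probe. Of these, 9 were above background on no array, namely IL2, IL4, IL7, IL9, IL12B, IL13, IL18, IL21 and IL23A, and IL12A was above background on 4 arrays. The ligand that could be tested was IL15, with a DP minus CD4 of 0.72 and a DP minus CD8 of 0.70, neither called. The transcripts of the receptor chains were thus read in cells where most of their ligands were not detectable on these arrays.

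Of the Janus kinases and STAT proteins, 9 of 11 were tested and 0 passed in any comparison. The medians were -0.16 for DP minus CD4, 0.01 for DP minus CD8 and 0.07 for CD4 minus CD8. The shares called over all tested probes were 0.293%, 0.312% and 0.437% in these comparisons, so a count of 0 does not set the list apart. STAT5A, which acts below the common gamma chain receptors, had the smallest p of the list. It averaged 1.87 ± 0.59 in DP, 1.49 ± 0.21 in the CD4 cells and 0.44 ± 1.10 in the CD8 cells (SD), a DP minus CD8 of 1.42 (SE 0.54; limma adjusted p = 0.604). Its order over the fractions was that of IL2RG, and neither gene was called. STAT5B did not share that order, with means of 3.35 in DP, 2.69 in CD4 and 3.09 in CD8, and was not called either. STAT4, which acts below the interleukin-12 receptor, was above background on all 9 arrays.

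Of 13 inhibitors of receptor signalling, 5 had a probe and 2 were tested, with 0 calls, beside 0.293% to 0.437% of all tested probes. SOCS2, an inhibitor of Janus kinase signalling that STAT5 proteins are known to induce, averaged -0.40 ± 0.34 in DP, -2.15 ± 0.99 in the CD4 cells and -1.72 ± 0.79 in the CD8 cells (SD). SOCS2 was above background on 3 DP arrays and on 1 array of each other fraction, so it entered the test through DP alone and a higher level there was favoured by the filter. DP minus CD4 was 1.75 (SE 0.66; limma adjusted p = 0.656) and DP minus CD8 was 1.32 (adjusted p = 0.820).

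Of 11 genes that carry the interleukin-18 signal, 6 were tested and 0 passed in any comparison, beside 0.293% to 0.437% of all tested probes. The medians were 0.38 for DP minus CD4, 0.20 for DP minus CD8 and -0.16 for CD4 minus CD8. RELA, a subunit of NF-kappaB, had the smallest p, with 0.82 and 0.54 for DP minus CD4 and DP minus CD8. Of 14 target genes of these receptors, 4 were tested. IFNG, which encodes interferon gamma, averaged 1.45 ± 0.35 in DP, -2.84 ± 0.34 in the CD4 cells and 0.93 ± 0.88 in the CD8 cells (SD). It was higher in DP than in CD4 by 4.29 (SE 0.52; limma adjusted p = 0.00589) and lower in CD4 than in CD8, at -3.77 (adjusted p = 0.00661). DP minus CD8 was 0.52 and was not called. The call for DP against CD4 was lost without DP array 1, with the slide as a block and with normexp and quantile normalization, at adjusted p-values of up to 0.120. IFNG was above background on 1 of the 3 CD4 arrays and on all DP and CD8 arrays.

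**Figure D4:**
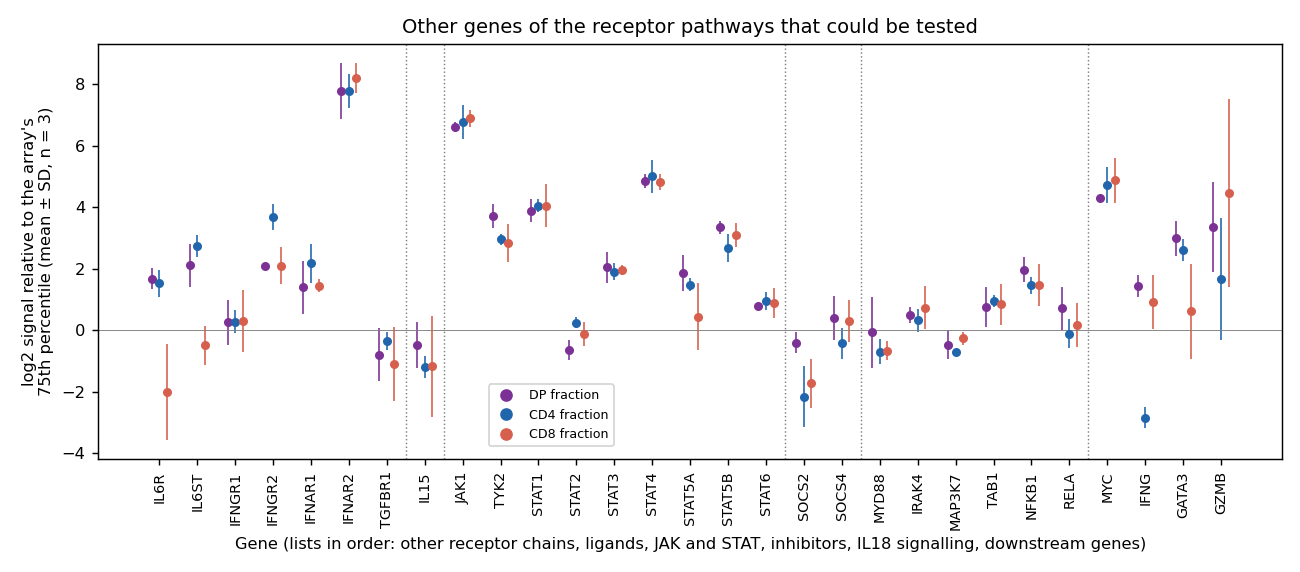
Mean ± SD of the log2 signal relative to the array's 75th percentile (vertical axis, n = 3 arrays) for the tested genes of the pathway lists in each fraction; dotted lines separate the lists. IL6R and IL6ST stand low in the CD8 cells and IFNG stands low in the CD4 fraction, at -2.84. Of the 9 Janus kinase and STAT genes 0 passed the test, beside 0.293% to 0.437% of all tested probes.

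Genes whose pattern was most like that of IL18R1 or IL2RG were taken as the 5 highest Pearson correlations with the brighter probe over the 9 arrays, among 1506 other tested genes. For IL18R1 these were CD9 (r = 0.946), IL2RG (0.913), DPP4 (0.912), ADAP1 (0.894) and NSDHL (0.889). For IL2RG they were SLA-DOB (0.947), CALR (0.943), CD9 (0.941), PRPF19 (0.935) and SNRPA (0.931). CD9, a tetraspanin of the cell surface, was the gene on both lists, and IL2RG was itself the second gene on the list of IL18R1. The correlations are descriptions over 9 arrays that share slides, amplification and the fraction means. CD8 array 2 can weigh heavily on both lists. There IL18R1 probe 1 was at the array's lowest signal and IL2RG probe 1 read -0.19. ADAP1 was above background on 0 of the 3 CD8 arrays, and its lowest CD8 value, -3.68, was that same lowest signal. The correlations without that array were not computed.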

How the data were processed

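The data were 9 scanner files, 1 for each array. Per the file headers, Agilent Feature Extraction 11.0.1.1 wrote them, and the deposited processed signal is a linear intensity, background-corrected but not normalized between arrays. The detection mark is also as deposited. The table of processed values is deposited on a log2 scale, and the sources used here do not name its program.

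The measure computed here was the log2 processed signal less the 75th percentile of noncontrol probes on its array. Between 1 and 12 outlier spots per array were left out, 0 spots were saturated, and repeated spots of a probe were averaged. A probe entered the test if some fraction had it well above background on its 3 arrays and each fraction had 2 or more values, which left 16024 of 43603. Versionless accessions named 6730 probes (15.4%) through the RefSeq annotation of the pig; the build of the files is not given, so no coordinates are printed. No sequence of the probes was used here.

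Differences between fractions came from limma 3.58.1 with R 4.3.3 (lmFit, eBayes with trend, two-sided, Benjamini-Hochberg over all tested probes, threshold 0.05), with all 9 arrays in 1 fit without a block. By the numbers of the sample titles, arrays of the same number deviated together (r above 0.1) in 3 of 3 pairs of DP and CD8 (0.27 to 0.33). They did so in 2 of 3 pairs of each other comparison, and 7 of 9 arrays correlated best with their own number. With the CD8 arrays numbered by the deposited table, r was above 0.1 in 3 of 9 same-number pairs (median -0.11). All arrays numbered 2 lay on slide 2 and all numbered 3 on slide 3, so number and slide cannot be told apart for them. The labels do not say what the number marks, so the fit without the block was kept and blocked values are given beside it. The steps were tested on simulated data. The number of arrays limits the precision. The normexp alternative, with an offset of 50, used the median spot signal in place of the mean signal that had been planned. Figures were drawn with Python 3.11.15 and matplotlib 3.10.9. The members and gene lists were chosen with earlier results of these data known. By rule, all member probes are accounted for. By the same rule, the called genes of each pathway list, or the gene with the smallest F test p, are named. Genes listed as undetected or without a probe, and STAT4, STAT5B and FCGR3A, were chosen after their values were seen. The summed level of the B cell markers is not reported here.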

Additional observations from a re-analysis of the deposited data

How the results depend on the processing

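The alternatives were another percentile, normexp with quantile normalization, the deposited table, 2 other filters, blocks for the replicate number or the slide, no variance trend, only the fractions compared, and leaving out each array. Under all 19, 0 receptor probes were called in each comparison where they were tested; the smallest adjusted p in limma was 0.279 for DP against CD4, 0.137 for DP against CD8 and 0.566 for CD4 against CD8. IL18R1 was not tested among probes above background on all 9 arrays, which held 5 receptor probes. Of the 21 receptor differences, 7 changed sign under some setting and none of them was called. With normexp and quantile normalization, whose offset of 50 shrinks dim values by construction, CD4 minus CD8 of IL18R1 was -9e-04 and -0.0052 for probes 1 and 2, and DP minus CD8 was 0.76 and 0.50. With the slide as a block, DP minus CD4 of IL7R probe 1 was -0.0505. Leaving out 1 array, the differences ranged from -0.4452 to 0.2332 for IL7R probe 2 in DP minus CD4, -0.1217 to 1.0664 for IL12RB1 in DP minus CD8, -1.1177 to 0.0704 for IL12RB1 in CD4 minus CD8, -0.3109 to 1.6697 and -0.289 to 0.8369 for IL18R1 probes 1 and 2 in CD4 minus CD8, -0.218 to 0.2812 for IL7R probe 1 in CD4 minus CD8, -0.0354 to 0.3921 for IL6R in DP minus CD4 and -0.1686 to 1.4622 for IL15 in DP minus CD8. With the replicate number as a block, 0 receptor probes were called, over all probes it gave 144, 83 and 110 calls, and it changed no call of a pathway gene named in the report. The CD8 columns 1, 2 and 3 of the deposited table matched scanner arrays 3, 1 and 2, and a block by that numbering gave 30, 21 and 50 calls. The slide block gave 2, 2 and 38. Over all settings the calls over all probes ran from 2 to 144, 1 to 87 and 12 to 110, and the counts were 2 and 1 in the DP comparisons without DP array 1. The IFNG call in CD4 against CD8 was lost with normexp and quantile normalization (adjusted p = 0.150). Without the filter on dim probes the median over all probes was -0.32 for DP minus CD8 and -0.24 for CD4 minus CD8. IL2RA, IL4R and IL12RB2 are limited by signal near background.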

Other observations

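Some dim genes of the receptor pathways were seen on part of the arrays and could not be tested. FOXP3, the transcription factor of regulatory T cells, was above background on 2 DP arrays, 1 CD4 array and 0 CD8 arrays, with means of -1.71 ± 0.31, -1.70 ± 0.31 and -3.60 ± 0.30 (log2 relative to the 75th percentile; SD, n = 3). SOCS3, an inhibitor of cytokine receptor signalling, was above background on 2, 2 and 0 arrays, with means of -1.76 ± 0.93, -1.79 ± 0.70 and -3.71 ± 0.46. CTLA4, an inhibitory receptor, was above background on 0, 2 and 1 arrays. IL2RA, which regulatory T cells are known to carry, was above background on 0 of the arrays on which FOXP3 was seen. These genes were chosen after their values were seen.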
